A study of Mus musculus with 26 samples.

Results

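Galectins are small soluble lectins, proteins that bind sugars ending in galactose on glycoproteins and glycolipids. They leave the cell without a signal peptide and crosslink glycoproteins at the cell surface, and inside the cell they sort cargo and mark damaged endosomes and lysosomes whose sugars have become exposed to the cytosol. The family has prototype members with a single carbohydrate-recognition domain (Lgals1, Lgals2), a chimera member that joins such a domain to a long flexible tail (Lgals3), and tandem-repeat members with a pair of such domains (Lgals4, Lgals8, Lgals9). Lgals2 and Lgals4 are known as products of the intestinal epithelium, and Lgals4 is known for carrying brush border enzymes to the apical surface of enterocytes.

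The 6 galectin genes Lgals1, Lgals2, Lgals3, Lgals4, Lgals8 and Lgals9 were taken by symbol from each count table, as 6 of 40481 genes in each of the mouse tables and as their human counterparts, 6 of 55093 genes, in the human table. They were chosen from earlier results of these data in which levels were set side by side by genotype and hairpin, so their values in those 3 comparisons are given as a description. The comparison of wild-type spheroids with wild-type crypts was not named in that choice and was tested. All 6 members passed the filter on low counts in every comparison.

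The study sequenced RNA after loss of Fgfr1op, which encodes a protein of the centrosome, also called FOP or CEP43, with roles in microtubule anchoring and ciliogenesis. The first system was mouse small intestinal spheroids, which are epithelial cysts grown in Matrigel with L-WRN conditioned medium, a source of Wnt, R-spondin and noggin. There were 4 Fgfr1op KO and 4 wt (WT) libraries, all treated with 250 nM hydroxytamoxifen and labelled day 3 after it. The second system was mouse small intestine enriched for crypts and collected after tamoxifen, with 6 Fgfr1op KO and 6 WT libraries. In each genotype 3 samples were labelled day 6 and 3 day 9, but the table's columns name the genotype and a running number only, so days are pooled here and library numbers are those of the columns. The third system was a human colorectal carcinoma line, Caco-2, that takes on features of enterocytes, carrying a doxycycline-inducible hairpin against FGFR1OP (shFgfr1op, 3 libraries) or a scramble hairpin (3 libraries) at day 3 of doxycycline. The driver of recombination in the mice and their age and strain were not given in the sources used here. The knockdown rests on 1 hairpin. The labels do not call the Caco-2 samples separate cultures, and p-values there cover the spread among these samples, which may be technical.

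A KO spheroid library held 51459939 to 63981065 counts and a WT spheroid library 44152608 to 67630241. A KO crypt library held 48068740 to 88869286 counts and a WT crypt library 49536700 to 103352863, while shFgfr1op cells had 37281821 to 43876634 and scramble cells 37989227 to 50965004. Fgfr1op was at 17.4 ± 1.98 CPM (counts scaled to the size of the library) in KO spheroids and 23.2 ± 1.12 CPM in WT spheroids (SD, n = 4 each), a log2 difference of -0.42 ± 0.095 (SE) that did not pass the test across all genes. It fell to 21.1 ± 5.21 CPM in KO crypts, against 32.9 ± 6.26 CPM in WT crypts (SD, n = 6 each), and FGFR1OP fell to 6.82 ± 0.414 CPM in shFgfr1op cells, against 15.7 ± 0.208 CPM in scramble cells (SD, n = 3 each). Several libraries stood apart. On the first principal component of the crypt table, which took 56.0% of the variance, KO libraries 4, 5 and 6 lay at -101.7, -124.3 and -106.7, while the other 9 libraries lay between -5.16 and 64.4. Whether KO libraries 4, 5 and 6 share a labelled day cannot be read from the columns. The day therefore cannot be told apart from this split. In spheroids WT library 1 lay at -46.7 and the other 7 between -15.1 and 32.4, and it was the only spheroid library rich in Xist reads and nearly without reads from Y-linked genes. Crypt KO library 6 and WT library 6 were the only crypt libraries with many Y-linked reads. For the members, differences in crypts are also given without KO libraries 4, 5 and 6. In spheroids those of Lgals1, Lgals2 and Lgals4 are also given without WT library 1. For the lists of galectin partners in crypts, only the counts of genes that passed are given without KO libraries 4, 5 and 6.

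The promoters below are those of the members with the highest levels in the mouse intestine and of Lgals3, whose difference between spheroids and crypts ran the other way. They are RefSeq windows of build GRCm38.p6 that run from 250 bases before to 50 bases after the annotated start, written on the strand of the gene. Lgals2 is at chr15:78855480-78855779 on the minus strand, Lgals4 at chr7:28833544-28833843 on the plus strand, Lgals9 at chr11:78984875-78985174 on the minus strand and Lgals3 at chr14:47373610-47373909 on the plus strand. Capitals mark matches, on either strand, to any of 4 motifs. The site of the AP-1 factors was searched as TGANTCA. The core site of the intestinal CDX factors was searched as TTTAT. The core site of HNF4 nuclear receptors was searched as CAAAGTCC, and the fourth motif was the promoter element TATAAA.
Lgals2: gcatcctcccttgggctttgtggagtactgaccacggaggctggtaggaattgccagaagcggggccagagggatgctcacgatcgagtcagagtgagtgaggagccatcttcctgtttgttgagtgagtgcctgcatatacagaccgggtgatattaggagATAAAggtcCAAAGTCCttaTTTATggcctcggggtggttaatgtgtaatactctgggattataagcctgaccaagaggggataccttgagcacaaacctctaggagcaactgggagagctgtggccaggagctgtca
Lgals4: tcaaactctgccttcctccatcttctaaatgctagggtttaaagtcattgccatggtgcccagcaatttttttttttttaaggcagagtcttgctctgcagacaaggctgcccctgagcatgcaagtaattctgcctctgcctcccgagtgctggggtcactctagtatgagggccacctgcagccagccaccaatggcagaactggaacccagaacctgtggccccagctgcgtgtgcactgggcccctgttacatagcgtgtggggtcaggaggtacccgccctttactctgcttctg
Lgals9: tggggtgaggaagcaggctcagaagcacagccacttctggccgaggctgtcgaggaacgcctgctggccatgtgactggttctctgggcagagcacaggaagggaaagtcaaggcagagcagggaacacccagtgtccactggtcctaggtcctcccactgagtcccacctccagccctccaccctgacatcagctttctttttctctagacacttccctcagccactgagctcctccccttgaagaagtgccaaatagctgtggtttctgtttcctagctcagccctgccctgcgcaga
Lgals3: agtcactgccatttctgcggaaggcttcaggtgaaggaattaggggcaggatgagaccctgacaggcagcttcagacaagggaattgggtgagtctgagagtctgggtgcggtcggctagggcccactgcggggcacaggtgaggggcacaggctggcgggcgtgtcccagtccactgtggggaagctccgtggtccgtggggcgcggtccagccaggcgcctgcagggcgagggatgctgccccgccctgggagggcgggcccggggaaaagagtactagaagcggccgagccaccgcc
Matches were found only in Lgals2 among the 5 members with a window, which also include Lgals8. CAAAGTCC lay on the plus strand of the window at -79 to -72 from the start, and TTTAT lay on its minus strand at -88 to -84 and on its plus strand at -68 to -64, with no overlap among the 3. Of 32851 windows of the same length in the table, 1.42% held CAAAGTCC, 40.0% TTTAT, 13.6% TATAAA and 7.81% TGANTCA. The Lgals3 window held 18 CG pairs, against 6 in Lgals2 and 4 each in Lgals4 and Lgals9, and the median over all windows was 7.

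In the mm10 annotation (GENCODE M21) the mouse members are protein-coding genes on 5 chromosomes. Lgals2 (15, 78850860 to 78855529, minus strand) and Lgals1 (15, 78926725 to 78930465, plus strand) lie close together. Lgals3 (14, 47367751 to 47386160, plus), Lgals4 (7, 28833854 to 28841708, plus), Lgals8 (13, 12439415 to 12464944, minus) and Lgals9 (11, 78962974 to 78984946, minus) are apart from them. The RefSeq promoter windows of Lgals3 and Lgals8 lie inside these spans, and that of Lgals4 lies just before its span. The start of these genes thus differs between the annotations, and the motifs and CG pairs above belong to the RefSeq start. Lgals2 overlaps Cdc42ep1 and Lgals8 overlaps Heatr1 on the opposite strand. The sources used here do not say whether reads were counted by strand, so reads from the overlapping stretches cannot be assigned with certainty. Whether exons of these pairs overlap was not examined.

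Wild-type crypts and wild-type spheroids differed in the level and in the order of their galectins. To set genes side by side, CPM was divided by the length in kilobases of all annotated exons of the gene, merged over its transcripts. This CPM was scaled within each mouse table, so spheroids and crypts stand on separate scales here. Levels on a joint scale follow below. This length was 0.592 kb for Lgals2 and 2.315 kb for Lgals4, and the order of genes can depend on it. Before the division Lgals4 was the higher in WT crypts, at 10942 CPM against 4249 CPM for Lgals2. In WT spheroids Lgals4 averaged 1039 CPM per kilobase (950 to 1245 over 4 libraries) and Lgals2 averaged 769 (622 to 1025), and the ranges of these 2 overlapped. Lgals3 followed at 307 CPM per kilobase (244 to 366) and Lgals9 at 119 (106 to 134), and their ranges met neither each other nor a neighbour. Lgals8 at 16.1 CPM per kilobase (14.7 to 16.9) and Lgals1 at 11.95 (7.37 to 15.5) closed the order with overlapping ranges.

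In WT crypts the order was led by Lgals2 at 7177 CPM per kilobase (5590.1 to 9741 over 6 libraries) and Lgals4 at 4727 (3672 to 6129), again with overlapping ranges. Lgals9 came next at 774 (549.6 to 956) and Lgals3 after it at 99.96 (44.5 to 172), so these 2 had changed places relative to spheroids. Lgals8 was at 27.6 (22.2 to 37.0) and Lgals1 last at 1.22 (0.639 to 2.28), each apart from its neighbours. The KO crypts had the same order as the WT crypts, with Lgals2 and Lgals4 overlapping. In KO spheroids Lgals4 at 929 CPM per kilobase (843 to 1058) lay above Lgals2 at 534 (505 to 602) without overlap, and Lgals1 at 17.1 (14.7 to 19.2) stood above Lgals8 at 14.7 (12.6 to 16.4) with overlap. Within single libraries, Lgals4 per kilobase was above Lgals2 in every spheroid library, KO or WT. In every crypt library, KO or WT, it was below Lgals2.

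**Figure D1:**
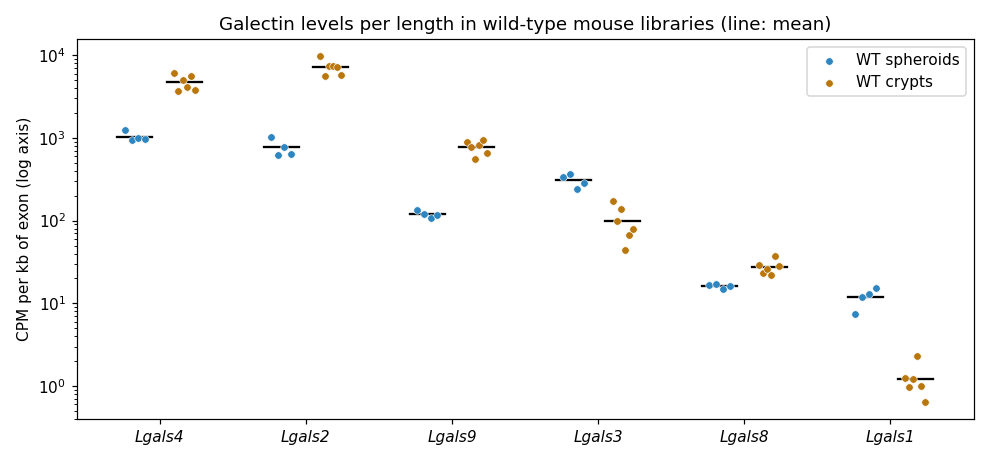
Level of the 6 galectin genes per kilobase of exon (CPM per kb, log axis) in WT spheroids (4 libraries, left of each pair) and WT crypts (6 libraries, right). CPM was scaled within each table, so the groups stand on separate scales. Points are libraries and lines are means; Lgals4, Lgals2, Lgals9 and Lgals8 lay lower in spheroids, and Lgals3 and Lgals1 higher.

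WT spheroids were compared with WT crypts in a joint fit of the mouse tables, with CPM scaled across both. Culture, library batch and mice cannot be told apart in this comparison, and its WT libraries also serve in the comparisons by genotype. All 6 members passed at an adjusted p below 0.05 (edgeR quasi-likelihood test, Benjamini-Hochberg over 17379 genes), 2 higher and 4 lower in spheroids. Of all genes tested 83.8% passed, 41.3% higher and 42.4% lower, so a share this high is close to what genes did in general. The members' libraries did not overlap in 6 of 6, and those of all genes did not in 76.5%. A fold change is given below on the log2 scale with its standard error from the fit.

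Among the prototype members, Lgals1, which stromal cells make in quantity and which drives T cell death, was at 8.92 ± 2.60 CPM in WT spheroids (SD, n = 4) and 1.21 ± 0.542 CPM in WT crypts (SD, n = 6), a log2 difference of 2.88 ± 0.31 (edgeR adjusted p 9.3e-07). Its spheroid libraries ran from 5.42 to 11.5 CPM and its crypt libraries from 0.636 to 2.23 CPM. Lgals1 was the member with the fewest reads in crypts, with 40 to 111 counts in each WT library. Lgals2, the other prototype member, was at 375 ± 88.2 CPM in WT spheroids and 4676 ± 979 CPM in WT crypts, a difference of -3.64 ± 0.22 (edgeR adjusted p 2.65e-09). This was the largest fall among the members, and the highest spheroid library at 494 CPM lay far under the lowest crypt library at 3679 CPM. Cdc42ep1, which encodes a partner of the small GTPase Cdc42 and overlaps Lgals2, was at 75.8 ± 12.2 CPM in WT spheroids and 2.89 ± 1.55 CPM in WT crypts, so it moved the opposite way.

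Lgals3, the chimera member, sorts glycoproteins to the apical surface and recruits repair and autophagy proteins to damaged lysosomes. It was at 470 ± 79.4 CPM in WT spheroids (380 to 558) and 205 ± 98.5 CPM in WT crypts (89.5 to 351), a difference of 1.20 ± 0.31 (edgeR adjusted p 0.0030). With Lgals1 it was the member whose level was higher in spheroids, and the gap between the groups was narrow, between 351 and 380 CPM.

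The tandem-repeat members were all lower in spheroids. Lgals4 fell to 1982 ± 248 CPM in WT spheroids, against 12045 ± 2581 CPM in WT crypts (-2.60 ± 0.19, edgeR adjusted p 1.96e-08). Lgals9, a ligand of the immune receptor Havcr2 that also responds to lysosome damage, fell to 210.4 ± 17.96 CPM in WT spheroids, against 1817 ± 334 CPM in WT crypts (-3.11 ± 0.17, edgeR adjusted p 1.16e-09). Lgals8, which senses vesicles ruptured by bacteria and calls the autophagy receptor Calcoco2 to them, fell to 48.9 ± 2.44 CPM in WT spheroids, against 112 ± 21.0 CPM in WT crypts (-1.19 ± 0.14, edgeR adjusted p 2.67e-06). Lgals4 ran from 1805 to 2348 CPM in WT spheroids and from 9449 to 15607 CPM in WT crypts, and Lgals9 from 191 to 234 CPM in WT spheroids and from 1316 to 2226 CPM in WT crypts. The fall of Lgals8 was the smallest of these, and its spheroid libraries were the tightest of any member, from 45.6 to 51.2 CPM. Each of the 6 differences passed in all 15 alternative fits, leaving out spheroid WT library 1 among them. Heatr1, which overlaps Lgals8, was at 61.6 ± 7.27 CPM in WT spheroids and 29.2 ± 9.25 CPM in WT crypts, so it moved the opposite way.

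The labelled tissues could be checked against marker lists. The 9 epithelial markers summed to 9327 to 11035 CPM in WT spheroids and 7322 to 11869 CPM in WT crypts, each on the scale of its own table. The 10 enterocyte markers summed to 108 to 566 CPM in WT spheroids and 16953 to 42104 CPM in WT crypts, so the preparation enriched for crypts carried a strong enterocyte signal. T cell markers summed to at most 0.0716 CPM in WT spheroids, with Cd3e, Cd3g, Gzma and Gzmb at 0, and to 59.9 to 113 CPM in WT crypts. Myeloid markers summed to 22.0 to 47.3 CPM in WT spheroids and 223 to 471 CPM in WT crypts. Fibroblast markers summed to 0.921 to 1.36 CPM in WT spheroids and 2.44 to 58.2 CPM in WT crypts. The part of these cell types in the galectin differences was not tested, and in bulk RNA fewer cells of a type and less RNA per cell cannot be told apart.

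For genes of the galectin system between WT spheroids and WT crypts, counts are given beside the 83.8% of all genes that passed (41.3% higher, 42.4% lower). Of 22 glycoproteins known to bind galectins 19 passed, 8 higher and 11 lower in spheroids, a share near that of all genes, with a median log2 difference of -0.90, against -0.05 over all genes. The peptidase Dpp4 was at 0.577 ± 0.337 CPM in WT spheroids and 767 ± 246 CPM in WT crypts, and the peptidase Anpep at 4.81 ± 3.22 CPM in WT spheroids and 5583 ± 1791 CPM in WT crypts. Both are also enterocyte genes. Tgfbr2, a receptor of TGF-beta, was instead at 389 ± 30.6 CPM in WT spheroids and 4.60 ± 1.04 CPM in WT crypts. Of 18 tested enzymes that build or cap galectin-binding glycans 17 passed, 11 higher and 6 lower, also beside 83.8% of all genes, with a median of 0.71. Mgat4b, which adds a branch to N-glycans, was at 138 ± 6.35 CPM in WT spheroids and 1.75 ± 0.370 CPM in WT crypts. Of 20 tested genes of the response to damaged endosomes and lysosomes 18 passed, 12 higher and 6 lower, beside the same 83.8%, with a median of 1.13, and Chmp4b, of the membrane-sealing ESCRT machinery, was at 240.1 ± 16.8 CPM in WT spheroids and 8.07 ± 1.40 CPM in WT crypts.

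In crypts, 4 of the 6 members had lower mean levels in KO and 2 higher, and Lgals4 and Lgals1 passed an adjusted p below 0.05. Of all 16413 genes tested 24.5% passed, 14% higher and 10.5% lower in KO, and the 2 of 6 members are given beside that share with nothing read from it. The median log2 difference over the members was -0.13, against 0.05 over all genes. None of the 6 had KO and WT libraries that did not overlap, against 10.6% of all genes. The members took 1.33 ± 0.150% of all counts in KO crypts and 1.64 ± 0.217% in WT crypts (SD, n = 6 each), and the KO range of 1.14 to 1.54% overlapped the WT range of 1.40 to 1.96%.

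Lgals4 fell to 7858 ± 942 CPM in KO crypts, against 10942 ± 2349 CPM in WT crypts (SD, n = 6 each), a log2 difference of -0.48 ± 0.15. KO libraries 1 to 6 were at 7935, 7900.1, 9544, 7833, 6941 and 6995 CPM, and WT libraries 1 to 6 at 14189, 8500.0, 11772, 9470.4, 12889 and 8834 CPM. The KO libraries were close together apart from library 3, while WT libraries 2, 4 and 6 were nearer to KO than to the other 3. Without KO libraries 4, 5 and 6 the difference was -0.37 and did not pass, and the call was also lost in 7 of the 12 fits that left out 1 library (without KO libraries 2, 4, 5 or 6 or WT libraries 1, 3 or 5). Over those 12 fits the difference stayed between -0.58 and -0.42.

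Lgals2 was at 3207 ± 801 CPM in KO crypts and 4249 ± 896 CPM in WT crypts, a difference of -0.41 ± 0.19 that did not pass in edgeR and passed in 1 of 18 alternative fits, voom. KO libraries 1 to 6 were at 3958, 3542, 4082, 3122, 2289.8 and 2250.2 CPM, and WT libraries 1 to 6 at 5767, 3309, 4420.2, 4376, 4254 and 3367 CPM. KO libraries 5 and 6 were the lowest of all 12, and without KO libraries 4, 5 and 6 the difference was -0.14. The sum of the enterocyte markers also differed among these libraries. It was 34386, 18037, 31288, 8369, 3552.98 and 7192 CPM in KO libraries 1 to 6, and ran from 16953 to 42104 CPM in WT crypts, so KO libraries 4, 5 and 6 lay under every WT library. Beside these sums, Lgals4 was at 7935, 7900.1, 9544, 7833, 6941 and 6995 CPM in KO libraries 1 to 6. All 10 enterocyte markers were detected in both groups. The part of the enterocyte signal in the levels of Lgals2 and Lgals4 was not tested. Cdc42ep1, which overlaps Lgals2, was at 8.29 ± 5.27 CPM in KO crypts and 2.61 ± 1.38 CPM in WT crypts. Its difference of 1.66 ± 0.44 passed.

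Lgals1 rose to 3.77 ± 4.10 CPM in KO crypts, against 1.11 ± 0.51 CPM in WT crypts, a difference of 1.77 ± 0.57. KO libraries 1 to 6 held 100, 71, 132, 193, 602 and 364 counts, or 1.09, 1.12, 2.09, 2.51, 11.9 and 3.96 CPM. WT libraries 1 to 6 were at 1.12, 0.885, 1.10, 2.06, 0.897 and 0.577 CPM. KO library 5 stood far above the others, and KO libraries 1 and 2 lay inside the WT range. Without KO library 5 the difference was 0.97 and did not pass, and without KO libraries 4, 5 and 6 it was 0.38. The call was also lost without KO library 6 or without any of WT libraries 1, 2, 3, 5 and 6, and without a filter on low counts. Fibroblast markers summed to 87.6 CPM in KO library 5, the highest of all 12, to 26.2 CPM in KO library 6 and to 1.33 to 10.2 CPM in the other 4 KO libraries. In WT crypts their sum was 58.2 CPM in library 4, which was also the WT library highest in Lgals1, and 2.44 to 17.2 CPM in the other 5. The human counterparts of these markers summed to 537 to 573 CPM in shFgfr1op Caco-2 cells and to at most 581 CPM in scramble cells. Caco-2 is a carcinoma line, so this sum is not specific to fibroblasts. The part of fibroblasts in the level of Lgals1 was not tested.

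**Figure D2:**
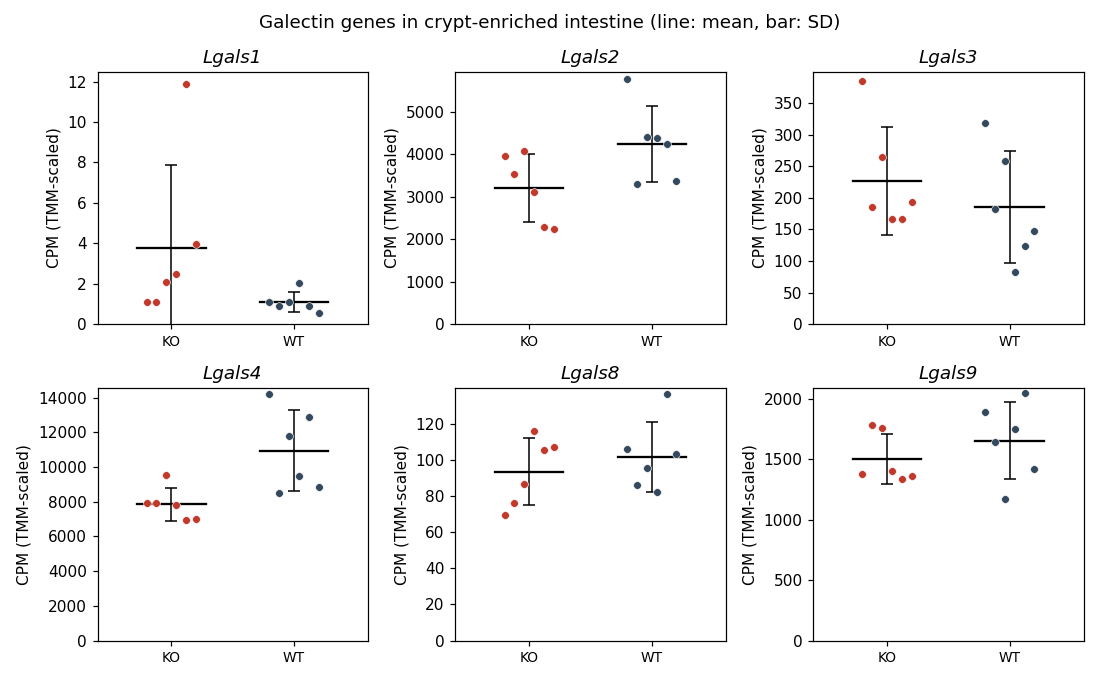
Level of each galectin gene in CPM in the crypt libraries, KO (6 libraries, left) and WT (6 libraries, right). Points are libraries, lines are means and bars are SD, with the bar of Lgals1 in KO ending at the axis; the ranges of KO and WT overlap in all 6 genes, and KO library 5 is the high point of Lgals1 at 11.9 CPM.

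Lgals9, Lgals3 and Lgals8 did not pass in crypts. Lgals9 was at 1503 ± 208 CPM in KO crypts (1336 to 1784, median 1390.2) and 1653 ± 317 CPM in WT crypts (1174 to 2044, median 1696), a difference of -0.14 ± 0.15. It was -0.0094 without KO libraries 4, 5 and 6, -0.22 without KO library 3 and -0.24 without WT library 3. Lgals3 was at 227 ± 85.3 CPM in KO crypts (166 to 384, median 189) and 186 ± 88.3 CPM in WT crypts (82.8 to 319, median 165), a difference of 0.29 ± 0.31. The libraries of Lgals3 spread widely in both groups, and its difference ran from 0.07 without KO library 1 to 0.58 without KO libraries 4, 5 and 6. Lgals8 was at 93.5 ± 18.7 CPM in KO crypts (69.7 to 116, median 96.1) and 101.6 ± 19.5 CPM in WT crypts (82.0 to 136, median 99.6), a difference of -0.12 ± 0.16. It was -0.39 without KO libraries 4, 5 and 6 and had the opposite sign, 0.06, with voom, and with 1 library left out it ran from -0.21 (without WT library 4) to -0.05 (without KO library 1). Within KO, libraries 4, 5 and 6 were the highest in Lgals8, at 105.7 to 116 CPM, and the lowest in Lgals2. Heatr1, which overlaps Lgals8, was at 40.4 ± 8.83 CPM in KO crypts and 26.5 ± 8.26 CPM in WT crypts. Its difference of 0.61 ± 0.22 did not pass.

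**Figure D3:**
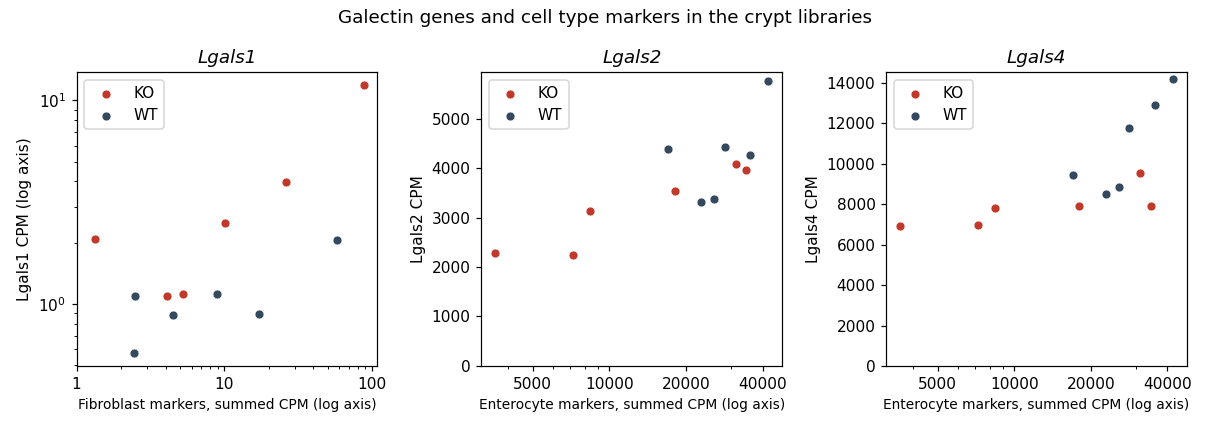
Galectin levels in CPM against the summed CPM of cell type markers (log axis) in the 12 crypt libraries, with fibroblast markers for Lgals1 (log axis) and enterocyte markers for Lgals2 and Lgals4. Points are libraries, KO and WT by colour; KO library 5 is highest in both Lgals1 and fibroblast markers (11.9 and 87.6 CPM), and the 3 KO libraries with the fewest enterocyte markers (3552.98 to 8369 CPM) include the lowest 2 in Lgals2.

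In spheroids no member passed the test between KO and WT. By edgeR 0 of 6 passed, 3 had an unadjusted p below 0.05, DESeq2 called 1 (Lgals2) and voom 0. Of all 15915 genes tested edgeR called 0.232%, and 2325 had an unadjusted p below 0.05. DESeq2 called more of all genes than edgeR did, as counted in the last section. The libraries of the groups did not overlap in 1 of 6 members, Lgals2, and in 8.56% of all genes, and nothing is read from these shares. The median log2 difference over the members was -0.09, against -0.002 over all genes. The members took 0.337 ± 0.0254% of all counts in KO spheroids (0.303 to 0.364%) and 0.378 ± 0.0417% in WT spheroids (0.351 to 0.440%), with overlap (SD, n = 4 each).

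Lgals2 was at 303, 299, 356 and 307 CPM in KO spheroids 1 to 4 and at 607, 368, 464 and 382 CPM in WT spheroids 1 to 4. The KO mean was 316 ± 26.9 CPM and the WT mean 455 ± 110 CPM (SD, n = 4 each), a difference of -0.52 ± 0.15. Every KO library was under every WT library, with KO 3 at 356 CPM nearest to WT 2 at 368 CPM. Without WT library 1, the highest, the difference was -0.36. Cdc42ep1, which overlaps Lgals2, was at 125 ± 14.4 CPM in KO and 91.8 ± 14.0 CPM in WT, a difference of 0.45 ± 0.12 that did not pass.

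Lgals1 was at 16.2, 17.3, 13.2 and 15.1 CPM in KO spheroids 1 to 4 and at 6.66, 10.7, 11.9 and 14.0 CPM in WT spheroids 1 to 4, a difference of 0.52 ± 0.19 that was 0.35 without WT library 1. The groups met only where WT 4 lay above KO 3. Lgals9 was at 301 ± 41.4 CPM in KO (259 to 353) and 255 ± 24.9 CPM in WT (227 to 287), a difference of 0.24 ± 0.10 with overlapping libraries, and 0.15 without KO library 1. These 2 members were the ones with higher means in KO, and the differences kept their sign in all 14 alternative fits. Fibroblast markers were near 0 in both groups, at 0.675 to 1.60 CPM in KO and 0.921 to 1.36 CPM in WT, with Lum at 0, and T cell markers summed to at most 0.0628 CPM in KO and 0.0716 CPM in WT.

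Lgals4 was at 2149.7 ± 230.4 CPM in KO (1950.4 to 2449.6) and 2405 ± 320.5 CPM in WT (2199.6 to 2882), a difference of -0.16 ± 0.11. It was -0.06 without WT library 1, which at 2882 CPM stood above the other 3 WT libraries at 2199.6 to 2283 CPM. Lgals8 was at 54.1 ± 6.27 CPM in KO (46.4 to 60.3) and 59.4 ± 3.65 CPM in WT (54.4 to 62.4), a difference of -0.13 ± 0.088 that was -0.07 without KO library 2. Lgals3 was at 551 ± 106 CPM in KO (449 to 696) and 571 ± 102 CPM in WT (453 to 680.2), a difference of -0.05 ± 0.16 whose sign turned in 2 of 14 alternative fits. For these 3 genes KO and WT overlapped. Heatr1, which overlaps Lgals8, was at 77.2 ± 14.7 CPM in KO and 74.6 ± 7.84 CPM in WT (0.05 ± 0.13). WT library 1 also had the highest enterocyte sum of the 8 spheroids, at 566 CPM, with the other 3 WT libraries at 108 to 442 CPM and the KO libraries at 80.3 to 479.8 CPM; its part in these values was not tested.

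**Figure D4:**
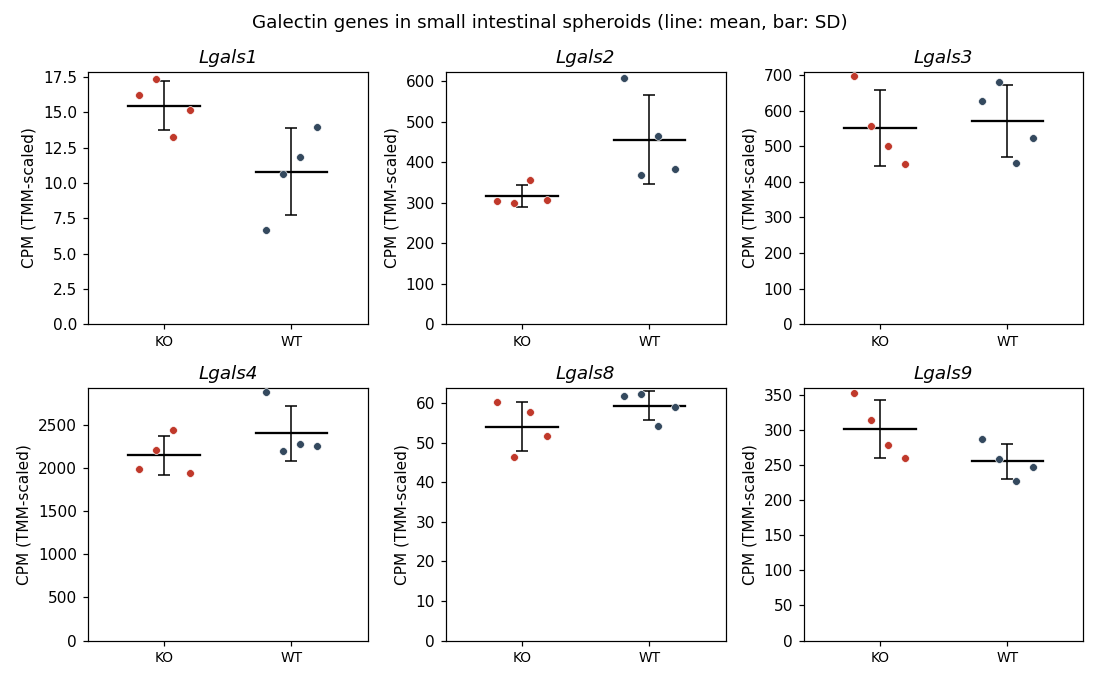
Level of each galectin gene in CPM in spheroids, KO (4 libraries, left) and WT (4 libraries, right). Points are libraries, lines are means and bars are SD; Lgals2 is the member in which KO (299 to 356 CPM) and WT (368 to 607 CPM) do not overlap.

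With the FGFR1OP hairpin in Caco-2, LGALS3 and LGALS2 were lower, LGALS8 was higher, and the other 3 members, which had few reads, did not pass. Of 6 members 3 passed in edgeR, 1 higher and 2 lower, beside 31.9% of the 18905 genes tested, 15.7% higher and 16.2% lower. Libraries of the groups did not overlap in 4 of 6 members and in 42.4% of all genes, and nothing is read from these shares. No levels are compared between human genes here, since lengths of human genes were not used.

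LGALS3 was at 87.0, 87.3 and 84.9 CPM in shFgfr1op cells 1 to 3 (3311 to 3759 counts), against 201, 217 and 209 CPM in scramble cells 1 to 3 (7507 to 10879 counts). The mean fell to 86.4 ± 1.31 CPM in shFgfr1op cells, against 209 ± 7.85 CPM in scramble cells (SD, n = 3 each), a log2 difference of -1.27 ± 0.037. It was the largest difference among the members, the groups lay far apart, and each group was tight. LGALS3 was also the human member with the most reads, and the 6 members together took 0.0163 ± 3.3e-04% of counts in shFgfr1op cells and 0.0283 ± 7.0e-04% in scramble cells.

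LGALS2 was at 21.3, 18.7 and 22.8 CPM in shFgfr1op cells 1 to 3, against 37.8, 33.6 and 36.9 CPM in scramble cells 1 to 3, a difference of -0.78 ± 0.067. LGALS8 was at 44.4, 52.0 and 52.1 CPM in shFgfr1op cells, against 36.7, 37.7 and 39.3 CPM in scramble cells, a difference of 0.39 ± 0.057. Both genes had groups that did not overlap, in opposite directions. LGALS8-AS1, named as an antisense gene of LGALS8, was at 0.759 ± 0.155 CPM in shFgfr1op cells and 0.842 ± 0.290 CPM in scramble cells, so it held few reads beside LGALS8. LGALS2, LGALS3 and LGALS8 passed in all 12 alternative fits.

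LGALS4 had 35, 47 and 34 counts in shFgfr1op cells, against 61, 88 and 54 counts in scramble cells, or 0.975 ± 0.241 CPM against 1.52 ± 0.308 CPM. Its difference of -0.64 ± 0.28 passed in 2 of 12 alternative fits, without shFgfr1op library 2 and without scramble library 3. LGALS9 had 32, 49 and 46 counts in shFgfr1op cells, against 22, 31 and 30 counts in scramble cells, and its CPM did not overlap, at 0.839 to 1.29 in shFgfr1op cells and 0.589 to 0.650 in scramble cells (0.77 ± 0.34). LGALS1 was at 2.10 ± 0.383 CPM in shFgfr1op cells and 1.93 ± 0.239 CPM in scramble cells, with overlapping libraries (0.12 ± 0.22). The 10 enterocyte markers summed to 1134, 1055 and 1217 CPM in shFgfr1op cells and to 2036, 2002 and 2015 CPM in scramble cells, and the 9 epithelial markers to 7716 to 8339 CPM in shFgfr1op cells and 8486 to 8597 CPM in scramble cells. Their part in the galectin values was not tested.

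**Figure D5:**
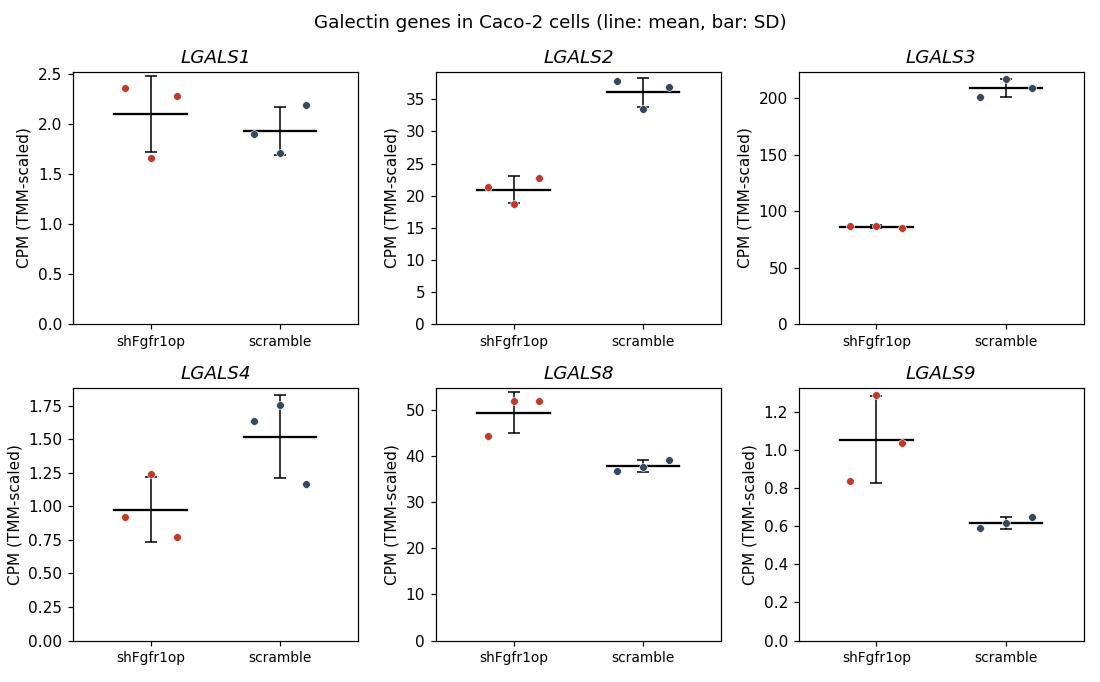
Level of each galectin gene in CPM in Caco-2 cells, shFgfr1op (3 libraries, left) and scramble (3 libraries, right). Points are libraries, lines are means and bars are SD; LGALS3 (84.9 to 87.3 against 201 to 217 CPM) and LGALS2 lie lower and LGALS8 higher in shFgfr1op cells without overlap.

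The other genes of the galectin fold were mostly low. Lgalsl, a galectin-related protein that lacks sugar binding, was at 58.9 ± 4.79 CPM in KO spheroids and 60.1 ± 5.98 CPM in WT spheroids (-0.03 ± 0.087), and at 18.4 ± 1.69 CPM in KO crypts and 20.6 ± 3.83 CPM in WT crypts (-0.16 ± 0.14). Lgals12, known from fat cells, was at 9.98 ± 1.40 CPM in KO spheroids and 12.7 ± 1.24 CPM in WT spheroids (-0.35 ± 0.12), without overlap, and at 5.16 ± 0.526 CPM in KO crypts and 5.73 ± 1.69 CPM in WT crypts. None of these 4 differences passed. Between WT spheroids and WT crypts, Lgalsl rose to 49.5 ± 4.44 CPM in WT spheroids, against 22.7 ± 4.10 CPM in WT crypts (1.13 ± 0.13, edgeR adjusted p 3.0e-06). Lgals12 rose to 10.5 ± 1.12 CPM in WT spheroids, against 6.32 ± 1.90 CPM in WT crypts (0.73 ± 0.21, edgeR adjusted p 0.0059), with overlapping libraries. Lgals7, a galectin of stratified epithelia, was at most 1.44 CPM in any mouse library, the highest being crypt KO library 5. In Caco-2, LGALSL was at 31.2 ± 1.64 CPM in shFgfr1op cells and 26.8 ± 1.17 CPM in scramble cells, a rise of 0.22 ± 0.062 that passed (edgeR adjusted p 0.0049), and the other 10 human genes looked up averaged at most 0.149 CPM in either group and did not pass the filter on low counts.

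For partners of the galectins in crypts, counts stand beside the 24.5% of all genes that passed (14% higher, 10.5% lower in KO) and the median of 0.05 over all genes. Of 21 tested glycoproteins known to bind galectins 7 passed, 4 higher and 3 lower in KO, with a median of 0.23. Tgfbr2 rose to 30.1 ± 17.6 CPM in KO crypts, against 4.19 ± 0.986 CPM in WT crypts (2.85 ± 0.39), and Cd44, a hyaluronan receptor of crypt base cells, rose to 187 ± 115 CPM in KO crypts, against 40.7 ± 15.1 CPM in WT crypts (2.20 ± 0.43). Tfrc, the transferrin receptor, fell to 89.9 ± 12.3 CPM in KO crypts, against 151 ± 32.0 CPM in WT crypts (-0.75 ± 0.15). Sis, the brush border enzyme sucrase-isomaltase and itself among the enterocyte markers, fell to 284 ± 96.2 CPM in KO crypts, against 603 ± 199.7 CPM in WT crypts (-1.09 ± 0.26). The libraries of Tgfbr2, Cd44 and Tfrc, which were named for their small p, did not overlap between the groups, beside 10.6% of all genes. Those of Sis did overlap. The list had 13 genes that passed with voom and 2 without KO libraries 4, 5 and 6. Of all genes, too, more passed with voom and fewer without KO libraries 4, 5 and 6, as counted in the last section.

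Of 18 tested glycan enzymes 3 passed in crypts, 1 higher and 2 lower, beside 24.5% of all genes, with a median of -0.12. St3gal4, a sialyltransferase that caps galactose, fell to 1179 ± 637 CPM in KO crypts, against 3166 ± 1044 CPM in WT crypts (-1.43 ± 0.37). Fut8, which adds core fucose, fell to 36.1 ± 2.94 CPM in KO crypts, against 45.0 ± 3.25 CPM in WT crypts (-0.32 ± 0.10), and Mgat4b rose to 2.90 ± 0.917 CPM in KO crypts, against 1.59 ± 0.322 CPM in WT crypts (0.87 ± 0.24). The count was 8 with voom, 6 without KO library 1, 1 without KO library 5, and 0 without KO libraries 4, 5 and 6. Of 20 tested genes of the response to damaged vesicles 7 passed, 6 higher and 1 lower, beside 24.5% of all genes, with a median of 0.35. Sqstm1, an autophagy receptor, rose to 54.3 ± 26.9 CPM in KO crypts, against 20.6 ± 5.56 CPM in WT crypts (1.40 ± 0.33). Chmp4b rose to 12.1 ± 3.59 CPM in KO crypts, against 7.33 ± 1.28 CPM in WT crypts (0.72 ± 0.20), and Pdcd6ip, also called ALIX, which Lgals3 recruits to damaged lysosomes, rose to 67.7 ± 26.4 CPM in KO crypts, against 44.2 ± 3.04 CPM in WT crypts (0.61 ± 0.19). Lamtor1, an anchor of mTOR signalling on lysosomes, rose to 105.8 ± 13.8 CPM in KO crypts, against 81.1 ± 6.64 CPM in WT crypts (0.38 ± 0.11). This count was 11 with voom, 2 to 4 without KO libraries 4, 5 or 6 or WT libraries 1, 2, 4, 5 or 6, each left out in turn, 3 without a filter on low counts, and 0 without KO libraries 4, 5 and 6 together. The 24.5% of all genes belongs to the main fit only. Of all genes, too, more passed with voom and fewer without KO libraries 4, 5 and 6. Nothing is read from the counts of either list under the other fits.

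In spheroids none of the 21 binding partners, 18 glycan enzymes and 20 vesicle response genes tested passed in edgeR. Unadjusted p was below 0.05 for 8, 3 and 3 of them, beside 2325 of all 15915 genes tested. DESeq2 called 3, 1 and 0, and voom 0 in each list, and nothing is read from these counts. DESeq2 also called more of all genes than edgeR did, as counted in the last section. The medians were 0.09, -0.05 and 0.10 for the lists in that order. The lowest p among the binding partners belonged to Cd44, at 373 ± 29.7 CPM in KO spheroids and 269 ± 42.1 CPM in WT spheroids (0.47 ± 0.11), and Egfr, the receptor of epidermal growth factor, at 143 ± 7.89 CPM in KO and 111 ± 14.6 CPM in WT (0.36 ± 0.093). Gcnt3, which branches mucin glycans, was at 146 ± 12.6 CPM in KO spheroids and 184 ± 21.0 CPM in WT spheroids (-0.34 ± 0.091), and St3gal4 at 29.0 ± 3.74 CPM in KO and 46.8 ± 20.8 CPM in WT (-0.69 ± 0.27). Rraga, a GTPase of mTOR signalling, was at 89.3 ± 7.11 CPM in KO spheroids and 75.8 ± 3.06 CPM in WT spheroids (0.24 ± 0.070), and Map1lc3b, an autophagosome protein, at 112 ± 7.15 CPM in KO and 97.5 ± 7.49 CPM in WT (0.20 ± 0.073). Of these named genes, Cd44, Egfr, Gcnt3 and Rraga had KO and WT libraries that did not overlap, beside 8.56% of all genes.

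In Caco-2, 13 of 21 tested binding partners passed, 3 higher and 10 lower with the hairpin, beside 31.9% of all genes (15.7% higher, 16.2% lower), and the median was -0.15, against -0.005 over all genes. DPP4 fell to 188 ± 4.85 CPM in shFgfr1op cells, against 303 ± 4.19 CPM in scramble cells (-0.69 ± 0.032). The brush border enzyme LCT, or lactase, fell to 1.01 ± 0.288 CPM in shFgfr1op cells, against 6.91 ± 0.366 CPM in scramble cells (-2.78 ± 0.18). ANPEP fell to 7.85 ± 1.34 CPM in shFgfr1op cells, against 16.4 ± 0.486 CPM in scramble cells (-1.06 ± 0.098), and the glucose transporter SLC2A2 to 9.58 ± 0.874 CPM in shFgfr1op cells, against 18.6 ± 0.440 CPM in scramble cells (-0.96 ± 0.086). These 4 partners are proteins of the differentiated enterocyte. Their libraries did not overlap between the groups, beside 42.4% of all genes, but they were named for their small p.

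Of 19 glycan enzymes 14 passed in Caco-2, 3 higher and 11 lower, beside 31.9% of all genes, with a median of -0.21. MGAT5, which makes the branched N-glycans that bind galectins best, fell to 55.3 ± 3.70 CPM in shFgfr1op cells, against 79.7 ± 2.19 CPM in scramble cells (-0.53 ± 0.047). B4GALT1, which adds the galactose itself, fell to 164 ± 0.582 CPM in shFgfr1op cells, against 212 ± 3.94 CPM in scramble cells (-0.37 ± 0.033). ST6GAL1, a sialyltransferase whose cap blocks binding of many galectins, fell to 43.7 ± 0.858 CPM in shFgfr1op cells, against 62.6 ± 1.28 CPM in scramble cells (-0.52 ± 0.048). UGT8, which makes the galactolipids that become sulfatide, a ligand of LGALS4, fell to 12.6 ± 0.254 CPM in shFgfr1op cells, against 19.6 ± 1.62 CPM in scramble cells (-0.64 ± 0.080). The enzymes lower with the hairpin included both some that add galactose and some that cap it.

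Of 21 vesicle response genes 10 passed in Caco-2, 7 higher and 3 lower, beside 31.9% of all genes, with a median of 0.03. PRKAA1, a catalytic subunit of the energy sensor AMPK, rose to 47.2 ± 3.11 CPM in shFgfr1op cells, against 19.2 ± 1.05 CPM in scramble cells (1.30 ± 0.062). MTOR, the growth kinase, fell to 91.8 ± 4.82 CPM in shFgfr1op cells, against 115 ± 4.56 CPM in scramble cells (-0.33 ± 0.041). CHMP4B rose to 251 ± 4.71 CPM in shFgfr1op cells, against 222 ± 3.38 CPM in scramble cells (0.18 ± 0.032), and MAP3K7, a kinase upstream of AMPK in the response to lysosome damage, rose to 56.7 ± 1.16 CPM in shFgfr1op cells, against 46.9 ± 2.54 CPM in scramble cells (0.27 ± 0.050).

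For each table, the most variable member was taken among those whose log2 CPM averaged at least 2. In crypts this left out Lgals1, which varied more than Lgals3. The genes whose pattern over libraries was most like that of the member taken were found by the root mean square difference of log2 CPM, each gene centred on its own mean. In spheroids Lgals1 was followed most closely over 8 libraries by Igsf11 (0.13), Slc28a3, Gm11868, Slc9a4 and Gm8163 (0.16). In crypts Lgals3 was followed over 12 libraries by 2200002D01Rik (0.22), Tprn, Gm12693, Pgp and Cdkn2b (0.31). In Caco-2 LGALS3 was followed over 6 libraries by AL121832.1 (0.061), FILIP1L, DISP2, SLC3A1 and IHH (0.074). All of these were lower in shFgfr1op cells, which follows from matching a gene that was itself lower there. The libraries of each table share their depth scaling and the structure of 2 groups, so this likeness is a description.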

How the data were processed

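RNA was measured by sequencing in 26 libraries. The authors deposited whole-number read counts per gene in 3 tables, whose columns were mapped to samples by name. STAR, DESeq2 and build mm10 are named in the submitters' processing notes without role or version, and the aligner settings, annotation and human build are not given in the sources used here. Rows that repeated a gene identifier (276 in each mouse table, 116 in the human table) were dropped, and the first row of each identifier was kept.

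From the counts, each comparison was fitted with edgeR 4.0.16 in R 4.3.3 (filterByExpr, TMM scaling, robust quasi-likelihood test, Benjamini-Hochberg over all genes tested, called at an adjusted p below 0.05), without a block for replicate numbers. The fit was tested on simulated data. CPM values are TMM-scaled within a table, also for the levels per kilobase and the marker sums. Only the joint fit of WT spheroids and WT crypts scaled CPM across both mouse tables. The standard error is the size of the log2 fold change over the root of the F statistic. Log2 CPM used a prior count of 2. Alternatives were relative log expression (RLE) size factors, fits without the filter on low counts or with a minimum of 1 CPM, DESeq2 1.42.0, voom with sample quality weights (limma 3.58.1), a replicate block and each library left out. The fit of crypts without KO libraries 4, 5 and 6 was chosen after seeing the data. No 2 libraries of a group had counts that agreed within sampling noise (chi-square per degree of freedom of 3.98 or more).

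The members and the lists of partners and markers were chosen with earlier results of these data known. All members were named. In each partner list and comparison by genotype or hairpin the 4 called genes of smallest p were named, or the 2 of smallest p where none was called, and for likeness the 5 nearest genes to the member of largest SD among those whose log2 CPM averaged 2 or more. Genes named for WT spheroids against WT crypts were chosen among those of smallest p after their values were seen.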

Additional observations from a re-analysis of the deposited data

Results flagged for a closer look

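In 4 of 24 groups tested (6 members, 4 mouse groups) the highest library stood apart from the others by Dixon's test, where chance gives about 1 in 20. Lgals1 was at 11.9 CPM in crypt KO library 5, the library with the highest sum of fibroblast markers. Lgals1 was at 2.06 CPM in crypt WT library 4, the WT library with the highest such sum. Lgals2 was at 356 CPM in spheroid KO library 3, while the other 3 KO libraries lay between 299 and 307 CPM. Lgals4 was at 2882 CPM in spheroid WT library 1, the library that also stood apart on the first principal component of its table.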

How the results depend on the processing

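Between WT spheroids and WT crypts all 6 members passed in every one of 15 alternative fits, and in Caco-2 LGALS2, LGALS3 and LGALS8 passed in all 12, with 3 or 4 members called. In spheroids 0 members were called in every alternative except DESeq2, which called 1. In crypts the count of 2 became 3 with voom, which added Lgals2, 1 when low counts were not filtered, 0 without KO libraries 4, 5 and 6, and 0 to 2 with 1 library left out, and the cause was not tested. No called member changed its sign. Over all genes the 37 calls in spheroids were 154 without a filter, 577 with DESeq2, 71 with the replicate block and 3 to 160 with 1 library left out, and the 4014 calls in crypts were 7208 with voom and 924 without KO libraries 4, 5 and 6. Scaling moved the median of all genes by less than 0.1 on the log2 scale. Pairing by replicate number was not clear, and so few libraries cannot exclude it. Deviations of same-numbered libraries correlated at -0.03, 0.02, 0.07 and 0.10 in spheroids, where 0 KO libraries were nearest to their own number. In Caco-2 they correlated at 0.04, 0.01 and 0.003, and 2 of 3 shFgfr1op libraries were nearest to their own number. With the replicate block, 0 members were called in spheroids and 3 in Caco-2. No paired analysis was possible in crypts because the columns carry no replicate number of the labels. LGALS4 and LGALS9 in Caco-2 had 22 to 88 counts per library, and Lgals1 in crypts 40 to 602.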
